A study of Drosophila melanogaster with 6 samples.

Results

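The Wnt ligands, and the proteins that release and inactivate them, were examined in leg discs at 0 h APF (after puparium formation), in tendon precursors (GFP+) and in input cells. The members were taken by name: 6 ligand genes (wg, Wnt2, Wnt4, Wnt5, Wnt6 and Wnt10), evi, which carries Wnt proteins to the cell surface, and Notum, which inactivates them. All 8 were found among the 17411 genes of the FPKM table (fragments per kilobase of transcript, scaled to the mapped fragments of the libraries), evi under its other name wls. Both groups came from the same pools of dissociated leg discs, labelled sr-gal4>UASGFP, with the genotype UAS-Lifeactin.GFP; sr-gal4/TM6b, tb in the study's methods. sr-gal4 is an enhancer trap in stripe, the gene for the key transcription factor of tendon fate. The GFP+ group holds 3 libraries of cells sorted for fluorescence, and the input group holds 3 libraries of cells sorted before them without regard to fluorescence. Each library came from pooled discs, and the study calls the replicates independent. Input cells therefore include GFP+ cells, and the sorting order cannot be told apart from the group.

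Wnt proteins are secreted, cysteine-rich signals. In the endoplasmic reticulum Porcupine attaches a lipid to them, Evi (Wntless) then escorts the lipidated ligand through the Golgi to the plasma membrane, and the retromer complex returns Evi for another round. Outside the cell, Notum cuts the lipid off and so ends the activity of the ligand. Notum is itself a Wg target in imaginal discs, which makes it a feedback inhibitor. In the leg disc wg is transcribed ventrally, where with dpp it sets up the proximal-distal axis.

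The deposited tables give 1 FPKM per group with a lower and an upper confidence bound, so values of single libraries were not analysed here, and no SD or p-value is given. A gene was called higher or lower in GFP+ cells where the bounds of both groups do not overlap. Overlapping bounds do not show that levels are equal, so the widest ratio the bounds allow (lower bound of one group over upper bound of the other) is given as well. Values in parentheses after an FPKM are its bounds. The confidence level of the bounds is not given in the sources used here. Across the 9199 genes with an FPKM of at least 1 in the higher group, 749 (8.14%) were called higher and 1183 (12.9%) lower, and the median ratio of GFP+ over input was 1.01. Mean normalized counts, averaged over the 6 libraries, summed to 31652166 per library. In such a bulk comparison, fewer cells of a type and less RNA per cell cannot be told apart. sr, which drives the sort, had an FPKM of 54.5 in GFP+ (44.1 to 64.9) against 6.59 in the input (4.87 to 8.30).

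Transcripts of 5 ligands, evi and Notum were detected in both groups, with Wnt2 and evi at the top of the order and Wnt4 and Notum at its foot. Wnt2 was the highest ligand in GFP+ cells with an FPKM of 94.0, above 87.6% of the tested genes, and evi had 91.3, above 87.3%. wg (66.0) and Wnt6 (64.7) came next with widely overlapping bounds, then Wnt5 (33.5), Wnt4 (10.8) and Notum (5.89). In input cells the order of the ligands was Wnt2 (118), wg (58.8), Wnt5 (50.5), Wnt6 (43.0) and Wnt4 (25.0). wg, Wnt5 and Wnt6 could not be ordered there, since wg overlapped with Wnt5 and with Wnt6, and Wnt5 with Wnt6. In GFP+ cells the bounds of Wnt6 and Wnt5 were apart, and those of Wnt2 overlapped with both wg and Wnt6. Wnt10 had an FPKM under 1 in both groups, so 7 of the 8 members passed the filter. FPKM is per transcript length, which allows levels of different genes to be compared, but the libraries were made with oligo-dT and how evenly reads cover the transcripts is not known.

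**Figure D1:**
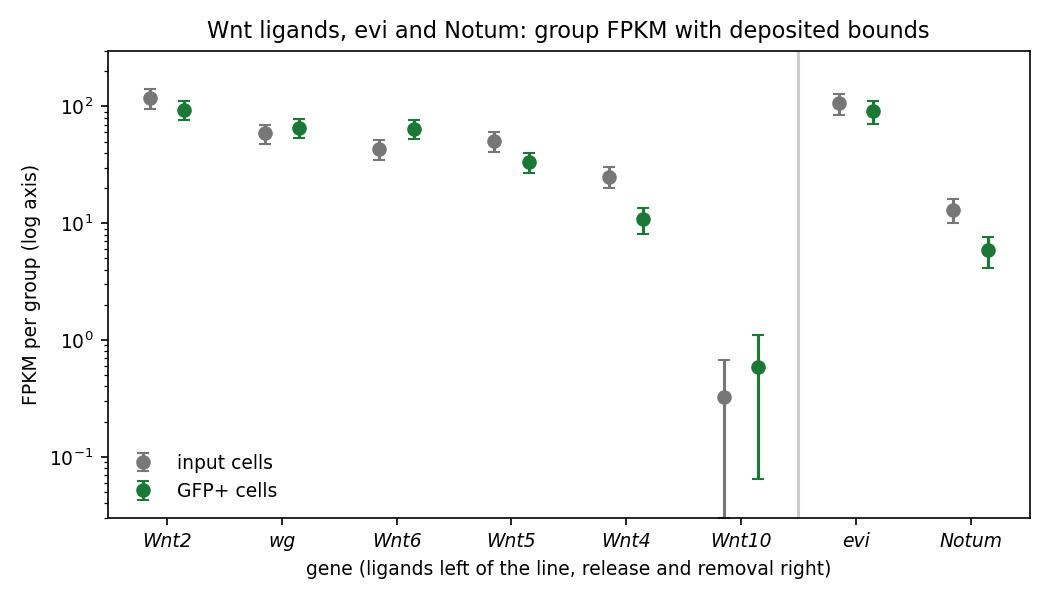
Group FPKM of the 8 members on a log axis, input cells in grey and GFP+ cells in green, with bars from the lower to the upper deposited bound (the lower bound of Wnt10 in input cells is 0 and runs off the axis). Wnt6 lies higher in GFP+ cells (64.7 against 43.0), while Wnt5, Wnt4 and Notum lie lower and the bars of Wnt2, wg, Wnt10 and evi overlap.

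Wnt6 was the member that was higher in GFP+ cells. Its FPKM was 64.7 in GFP+ (52.5 to 76.8) against 43.0 in the input (34.7 to 51.3), giving a ratio of 1.503, with 1.02 to 2.22 allowed by the bounds. The bounds were 1.15 FPKM apart, so the call is a narrow one. Of all tested genes, 80.6% had a smaller ratio. Wnt6 (FBgn0031902) encodes a ligand of 420 residues and occupies positions 7333714 to 7352542 of 2L (dm6, plus strand), with 4 exons in both annotated transcripts.

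wg (wingless, the founding Wnt gene of the fly) was not called in either direction. It had an FPKM of 66.0 in GFP+ (53.5 to 78.5) against 58.8 in the input (47.6 to 70.0), giving a ratio of 1.12 for which the bounds allow 0.765 to 1.65. wg lies 17.4 kb upstream of Wnt6 on the same strand, from 7307159 to 7316265, and encodes 468 residues in 5 exons. The level of wg over that of Wnt6 was 1.37 in input cells and 1.02 in GFP+ cells. The files list wg as FBgn0004009, and the annotation lists the same interval as FBgn0284084.

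Wnt4, at the other end of this cluster, was lower in GFP+ cells. It had an FPKM of 10.8 in GFP+ (8.12 to 13.6) against 25.0 in the input (19.9 to 30.1), giving a ratio of 0.433, with 0.270 to 0.681 allowed by the bounds. Its bounds were 6.36 FPKM apart, and 8.17% of tested genes had a smaller ratio. Wnt4 (FBgn0010453) lies on the minus strand of 2L from 7255419 to 7277171, 30.0 kb before wg, and encodes a ligand of 539 residues. Relative to wg, Wnt4 was 2.59 times lower in GFP+ cells than in input cells, as the level of wg over Wnt4 was 2.35 in input and 6.09 in GFP+ cells.

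Wnt10, the fourth ligand of the cluster, was near the limit of detection. Its FPKM was 0.586 in GFP+ (0.0649 to 1.11) against 0.326 in the input (0 to 0.675), and its mean normalized count was 32.7, against 1831 to 5421 for the other ligands of the cluster. The ratio of 1.80 has bounds that overlap widely, so no difference was detectable at this depth. Wnt10 (FBgn0031903) lies on the plus strand of 2L from 7363379 to 7377528, 10.8 kb after Wnt6. An antisense RNA, CR44063, shares 79 exon bases with it; whether counting used strand is not given in the sources used here, and that RNA had an FPKM of 0.0417 in GFP+ against 0 in the input.

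Of the 4 ligands of the cluster, Wnt6 was called higher and Wnt4 lower, and wg and Wnt10 had overlapping bounds. The ratios allowed by the bounds for Wnt4 (0.270 to 0.681) lie below those for wg (0.765 to 1.65) and Wnt6 (1.02 to 2.22). The ranges of wg and Wnt6 overlap, so their ratios are not set apart, and the bounds of Wnt10 are too wide to place it. The cluster spans 122 kb. The other protein-coding gene inside this interval is CG31909, which lies opposite to Wnt4 within its span and shares no exon base with it. CG31909 had an FPKM of 0.513 in GFP+ (0 to 2.01) against 0.408 in the input (0 to 2.33).

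**Figure D2:**
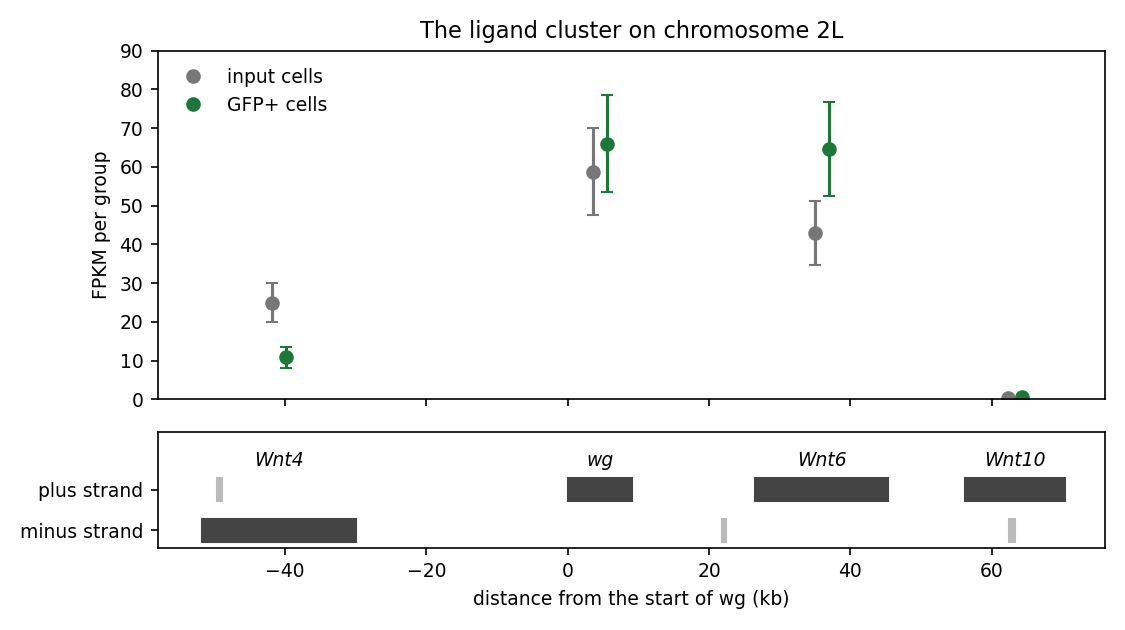
The ligand cluster of chromosome 2L, with group FPKM and deposited bounds (top, linear axis, input in grey and GFP+ in green) above the gene spans by strand (bottom, ligands in dark grey, other genes in light grey), against the distance from the start of wg in kb. wg and Wnt6 stand at 66.0 and 64.7 in GFP+ cells, Wnt4 stands at 10.8 in GFP+ cells against 25.0 in the input, and Wnt10 stays under 1.

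Of the ligands outside the cluster, Wnt2 had the highest level and overlapping bounds. It had an FPKM of 94.0 in GFP+ (76.2 to 112) against 118 in the input (95.9 to 140), giving a ratio of 0.798, with 0.546 to 1.16 allowed. Wnt2 (FBgn0004360) lies on the plus strand of 2R from 9494166 to 9503188 and encodes 352 residues. In input cells Wnt2 was 2.74 times the level of Wnt6, and in GFP+ cells it was 1.45 times.

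Wnt5, a ligand of the Derailed (Ryk class) receptors, known for guiding axons, was lower in GFP+ cells. Its FPKM was 33.5 in GFP+ (27.2 to 39.9) against 50.5 in the input (41.0 to 60.0), giving a ratio of 0.663, with 0.453 to 0.972 allowed. The bounds were 1.15 FPKM apart, as narrow a gap as that of Wnt6, and the call ended once the trend of ratios with transcript length was removed (ratio 0.944). Wnt5 (FBgn0010194) lies on the minus strand of X from 18501401 to 18505405, where its transcripts have 1 exon and encode the longest of the ligands, 1004 residues. Among the Derailed receptors, drl had an FPKM of 31.0 in GFP+ against 50.9 in the input, dnt had 17.7 against 35.5, and both were lower, drl no longer so without the trend with transcript length (ratio 0.762). Drl-2 was higher, at a low level, with 1.49 (0.871 to 2.11) against 0.449 (0.1396 to 0.759).

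wntD, the ligand of the fly that is not a member here, was not detected. It is listed at an FPKM of 0 in GFP+ against 0.00890 in the input, with a mean normalized count of 0.143.

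The make-up of the ligand transcripts is given as a description. The summed FPKM of the 7 ligands was 270 in GFP+ against 295 in the input. The trend with transcript length was not removed from this sum or from the shares, so their differences between groups may partly follow it. Without the trend the ratios were 1.36 for wg, 0.844 for Wnt2, 0.548 for Wnt4, 0.944 for Wnt5 and 1.80 for Wnt6. Wnt6 made up 23.99% of this sum in GFP+ cells against 14.6% in the input, and wg 24.5% against 19.9%. Wnt2 made up 34.9% against 39.9%, Wnt5 12.4% against 17.1%, and Wnt4 4.02% against 8.46%. With every bound taken at its extreme, the share of Wnt6 could be 17.7% to 31.8% in GFP+ cells against 10.3% to 20.1% in the input, and that of Wnt4 2.57% to 6.08% against 5.83% to 12.1%. The shares of wg, Wnt2 and Wnt5 overlap between the groups in the same way, so no share was apart when all errors add up.

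**Figure D3:**
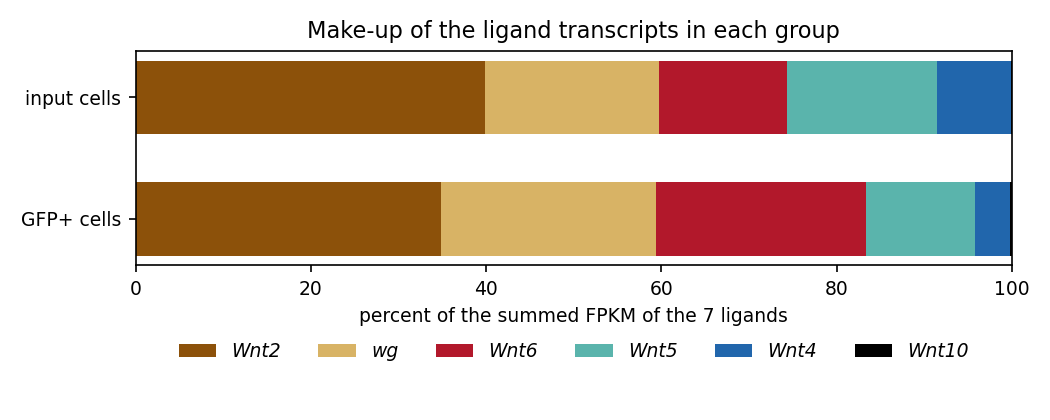
Share of each ligand in the summed FPKM of the 7 ligands, in percent, for input cells (top) and GFP+ cells (bottom); wntD is too low to be seen. The Wnt6 segment is 23.99% in GFP+ cells against 14.6% in the input, and the Wnt4 segment 4.02% and 8.46%.

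Neither evi nor any gene for lipidation and transport was called. evi had an FPKM of 91.3 in GFP+ (71.3 to 111) against 106 in the input (84.2 to 128), giving a ratio of 0.859, with 0.556 to 1.32 allowed. evi (FBgn0036141) lies on the minus strand of 3L from 11166620 to 11169625 and encodes a membrane protein of 594 residues. The locus of evi in the files starts at 11164971 and also spans Alg10, a gene on the opposite strand that shares 1 exon base with evi. por, which encodes Porcupine, had an FPKM of 36.7 (26.5 to 47.0) against 30.4 (21.0 to 39.9). Of 10 genes for lipidation and cargo transport (por, the p24 cargo receptor genes opm, CHOp24, eca, p24-1 and bai, and the retromer genes Vps35, Vps26, Vps29 and Snx3), 0 were higher and 0 lower, and their median ratio was 1.14. These counts stand beside 8.14% higher and 12.9% lower over all tested genes, shares at which few of 10 genes would be called. Their ratios ran from 0.624 for opm, with 22.0 in GFP+ (11.8 to 32.2) against 35.2 in the input (24.1 to 46.3), to 1.39 for bai, with 263 (210 to 317) against 189 (149 to 230).

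Notum was lower in GFP+ cells. It had an FPKM of 5.89 in GFP+ (4.13 to 7.66) against 13.0 in the input (10.03 to 16.0), giving a ratio of 0.452, with 0.258 to 0.763 allowed. Its bounds were 2.37 FPKM apart, and 9.14% of tested genes had a smaller ratio. The call ended once the trend with transcript length was removed (ratio 0.632). Notum (FBgn0044028) lies on the plus strand of 3L from 16023480 to 16032752, spans 4 exons and encodes a secreted enzyme of 671 residues. The microRNA gene mir-4941 lies within it and shares 103 exon bases on the same strand, which the counting could have split. Among the 8 members, Wnt4 had the lowest ratio and Notum the next.

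Of the 7 members that passed the filter, 1 was higher (Wnt6) and 3 were lower (Wnt4, Wnt5 and Notum), beside 8.14% and 12.9% of all tested genes. By size alone, 1 member had a ratio of at least 1.5 and 3 had at most its inverse, beside 19.5% and 22.0% of tested genes; these were the same 4 genes. Wnt6 (1.503) and Wnt5 (0.663) stood just past this fold, and Wnt6 had 1.48 once ratios were centred on the median of all tested genes. The median ratio of the 7 members was 0.798, against 1.01 over all tested genes. With the trend of ratios with transcript length removed, these medians were 0.944 and 1.03.

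**Figure D4:**
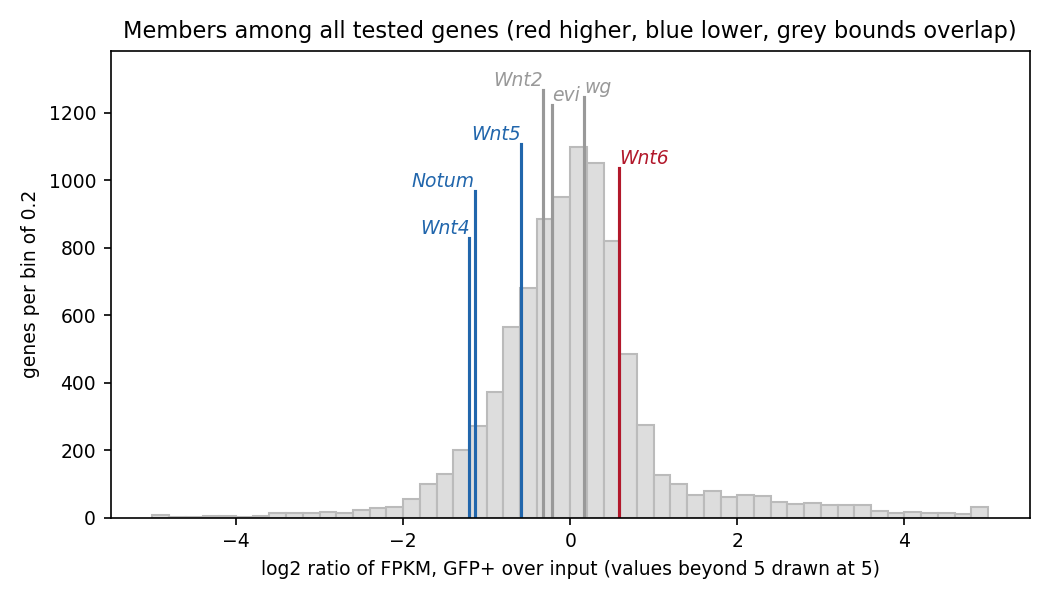
Histogram of the log2 ratio of FPKM (GFP+ over input, bins of 0.2) for all tested genes with an FPKM above 0 in both groups (values beyond 5 are drawn at 5), with vertical lines for the 7 members that passed the filter; the height of a line has no meaning. Wnt4 and Notum stand in the lower tail, with under 10% of tested genes below them, Wnt6 has 80.6% of tested genes below it, and wg, evi and Wnt2 stand in the central part.

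Genes with long transcripts tended to have lower ratios in these data. Over 9047 tested genes with an annotated transcript, Spearman's correlation of the log2 ratio with the median transcript length was -0.43, a description across genes, which share the same libraries. Notum (3792 bases) and Wnt5 (3928 bases) have the longest transcripts of the members, and the trend at their lengths was a ratio of 0.715 and 0.703. Once the trend was removed, the ratio of Wnt5 was 0.944 and that of Notum 0.632, and neither was still called. Wnt4 stayed lower, with a ratio of 0.548, and Wnt6 stayed higher, with 1.80; wg had 1.36 with overlapping bounds. Over all genes, 656 were higher and 498 lower after this step, against 749 and 1183 before it. What lies behind the trend was not tested.

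Of the other genes of the Wnt pathway that were called, nearly all were lower in GFP+ cells. Of 47 such genes outside the members, 46 passed the filter, of which 1 was higher, 22 were lower and 23 had overlapping bounds, with a median ratio of 0.672, beside 8.14% higher and 12.9% lower over all tested genes. The same shares stand beside the counts of each list that follows. After the length trend was removed, 2 were higher, 15 lower and 29 overlapping, with a median of 0.868, beside 656 higher and 498 lower of 9188 genes. Both glypicans that carry Wnt ligands over the cell surface were lower before that step and not called after it: dally had an FPKM of 53.1 in GFP+ against 102 in the input, and dlp had 56.5 against 94.4.

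Receptors, cytoplasmic components and nuclear factors made up most of these genes and held most of the lower calls. Of 11 receptor genes, 1 was higher (Drl-2) and 5 were lower. fz had an FPKM of 31.1 in GFP+ (24.9 to 37.3) against 75.1 in the input (61.0 to 89.1), and fz2, the other main Wg receptor, had 89.7 (72.1 to 107) against 203 (162 to 244). Of 10 genes for cytoplasmic transduction, 0 were higher and 5 lower. sgg, the GSK3 kinase of the destruction complex, had 41.4 (32.0 to 50.8) against 107 (84.5 to 130), and the casein kinase genes gish and CkIalpha were lower too. arm, the fly β-catenin, had 572 (444 to 700) against 492 (385 to 599), with overlapping bounds. Of 7 genes of the nuclear complex, 0 were higher and 5 lower, among them pan, the fly TCF, with 17.1 (13.2 to 21.0) against 44.7 (35.9 to 53.6), and the co-factors nej and gro. Without the length trend, 3 receptor, 3 cytoplasmic and 4 nuclear genes were lower. Differences between lists were not tested.

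Most genes of a list known to respond to Wg in discs were called lower. Of 7 such genes, Notum included, 0 were higher and 6 were lower, and without the length trend 5 were lower, Notum no longer among them. dac, which patterns the middle of the leg, stood at 36.9 FPKM in GFP+ (29.8 to 44.0) against 121 in the input (97.5 to 144), and mid, a T-box gene of the ventral leg, had 15.9 (11.9 to 19.9) against 42.5 (34.1 to 50.8). Dll, of the distal leg, had 39.6 (31.6 to 47.5) against 101 (82.2 to 120), and fz3 had overlapping bounds, with 33.5 (26.5 to 40.4) against 41.8 (33.3 to 50.2). Since dac, mid and Dll also mark regions of the leg, their levels are not a direct measure of Wg activity. Whether the lower levels follow Wg activity or the position of the sorted cells was not tested.

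**Figure D5:**
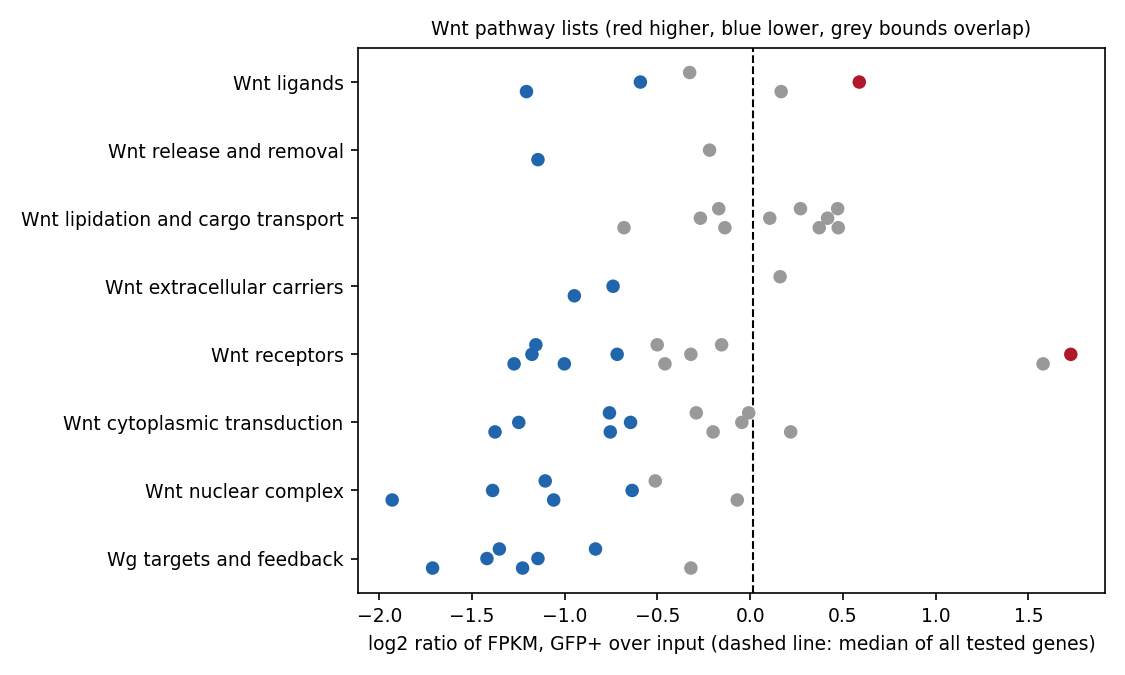
Log2 ratio of FPKM (GFP+ over input) of each gene that passed the filter in the 8 lists of the Wnt pathway, red for higher, blue for lower and grey for overlapping bounds, with the median of all tested genes as a dashed line; Notum and fz3 each appear in 2 lists. The 10 genes of lipidation and cargo transport are all grey, while 5 of 7 nuclear genes and 6 of 7 Wg targets are blue. Over all tested genes 8.14% were higher and 12.9% lower.

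Marker genes of several cell types were looked at as well, and not all genes of a list went the same way. Of 8 myoblast markers, 7 were lower in GFP+ cells, of which 6 had ratios from 0.0532 (Him) to 0.137 (Mef2) and ct had 0.486. Without the length trend these 6 stayed lower, while ct was not called (ratio 1.04). Ama, the eighth, was higher, with 221 against 128. The whole list summed to 243 FPKM in GFP+ against 298 in the input, and the 7 lower genes, a sum chosen after their values were seen, to 21.6 against 171. The ratios of Wnt4 (0.433) and Notum (0.452) lie above those of the 6 lowest markers. The part of myoblasts in the lower levels of Wnt4, Wnt5, Notum and the pathway genes was not tested. Of 6 tendon markers, 4 were higher (sr, Tsp, Lrt and dar1), slow was lower, and mew had overlapping bounds but was higher without the length trend. Of 5 neuron markers, nSyb and Syt1 were higher and fne lower, with a summed FPKM of 33.3 against 34.8 over the list. Without the length trend fne was not called, and brp, whose bounds overlapped before, was higher. The fat body gene Fbp1 was higher, at 3.78 FPKM in GFP+ against 0.0521 in the input, while Fbp2 (11.4, bounds 0 to 22.8) and Lsp2 (9.62, bounds 0 to 19.4) were not called. The list of 3 summed to 24.8 against 0.178, and the part of such cells in the level of Wnt6 was not tested. Of 5 hemocyte markers, 4 were below an FPKM of 1 in both groups, He at 0 in GFP+ cells. Of the tracheal markers, trh was lower (7.77 against 24.2) and btl was below 1 in both groups.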

How the data were processed

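RNA of 3 GFP+ and 3 input libraries, made with oligo-dT, was sequenced from a single end. The submitters' processing notes, per the labels, name Trimmomatic 0.32, Bowtie2 2.1.0, Cufflinks 2.2.1 and DESeq2 1.2.8 with dm6; the annotation release is not given in the sources used here. The deposited FPKM values come as 1 per group with bounds. From the second table the mean normalized count (a deposited signal value, averaged over 6 libraries) was used, while the fold changes, standard errors, statistics and p-values of the authors' own comparison in it were not. Single libraries could not be compared, and their depth was not analysed here.

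Ratios were taken without a pseudocount over genes with an FPKM of at least 1 in the higher group, leaving out 10 genes with an estimate not marked OK. A fold of 1.5, which the study's text uses, was counted as a second rule. Gene models came from Ensembl 115 (same assembly; 17358 genes matched). The length trend was a lowess curve (statsmodels 0.14.6, span 0.3), divided out of the GFP+ values and bounds. Pseudocounts, centring and other filters were tried as alternatives. Python 3.11.15, pandas 2.3.3, numpy 2.4.6 and matplotlib 3.10.9 were used. The code was also run on simulated data, with and without a length trend, whose bounds were set to match the simulated noise. Such a run cannot show how well the deposited bounds hold. Calls with a simulated length trend left in were computed too, but the check that the run had to pass did not cover them. The main calls here leave the trend in. The members and lists were chosen with earlier results of these data known. Genes named are the members, wntD, sr, coding genes inside the ligand cluster, the cell-type markers, and genes of the Wnt lists, first the 3 called ones with ratios farthest from 1. Genes that overlap a member are named for that, and the neighbours of the cluster and Ror were chosen after their values were seen.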

Additional observations from a re-analysis of the deposited data

How the results depend on the processing

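Removing the trend with transcript length ended the lower calls of Wnt5 (ratio 0.944) and Notum (0.632), which left 1 member lower in place of 3, and took the genes called lower from 1183 to 498; this alternative for the counts was chosen after seeing the data. The ratios of the other 6 members kept their direction and their call under it, under pseudocounts of 0.1 and 1, and with the ratios centred on the median of all tested genes, as did those of Wnt5 and Notum under the last 3. With an FPKM of at least 10 in the higher group, 452 genes were called higher, and 932 and 1304 had a ratio of at least 1.5 up or down, against 749, 1793 and 2025. With no filter, 3389 and 4283 genes had such a ratio up or down, as did 2 members up, Wnt10 being the added one, and 3 members down. No paired analysis was possible because the files used here hold 1 value per group; for the same reason no replicate could be left out in turn. Wnt6 and Wnt5 rest on gaps of 1.15 FPKM between bounds, and the counts behind Wnt10 and wntD are too low to show a difference.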

Other observations

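The genes on either side of the ligand cluster were looked at after their values were seen. CG13786, the gene next to Wnt4 on the side away from wg, had an FPKM of 0.0533 against 0.0304 with overlapping bounds. Ndae1, whose nearer end lies at -57.8 kb from the start of wg, beyond CG13786, had an FPKM of 13.3 in GFP+ (10.3 to 16.4) against 1.03 in the input (0.404 to 1.66), giving a ratio of 12.9. ninaC, the next gene after Wnt10, had 0.803 against 0.551 with overlapping bounds, and CG5149 after it had 50.9 (40.6 to 61.2) against 52.1 (41.5 to 62.7). Farther out, CG13784 was lower (ratio 0.431), CG5160 was lower (0.247) and CG5171 was higher (ratio 12.0, with 5.33 against 0.444). These were picked for their calls: the remaining coding genes looked at on both sides, such as mEFG1, CG5181, chm and muc, had overlapping bounds. The ligands between these neighbours had ratios from 0.433 (Wnt4) to 1.80 (Wnt10, with overlapping bounds).

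Ror, a receptor tyrosine kinase of the Wnt receptor list, had a ratio of 2.99 with overlapping bounds: its FPKM was 7.53 in GFP+ (3.01 to 12.1) against 2.52 in the input (0 to 5.10).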
